A study of Homo sapiens with 4 samples.

Results

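The abundant clone-named rows of the count table are 298 rows out of 59385. They were chosen by name and by count. The name had to start with RP, digits and a hyphen, or with CTD-, CTB- or CTC-. The mean raw count over the 4 libraries had to reach 1000. RP11-386G11.10, which meets both conditions, was left out. Because the counts themselves chose the rows, their abundance is given below as a description with no test. The libraries were made from C4-2, a line of human prostate cancer cells that descends from LNCaP and carries the androgen receptor, as 2 libraries with a small interfering RNA against EZH2 (siEZH2) and 2 with a control one (siCTRL). All cells were grown in RPMI with serum and antibiotics, and no further agent is named for either group. EZH2 carries the histone H3 methyltransferase activity of Polycomb repressive complex 2. Whether replicates came from separate cultures is not labelled, so p-values measure only the spread between these libraries, which may be technical.

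Such names are placeholders given to genes during annotation of the genome. The part before the dot is the bacterial or P1-derived artificial chromosome clone on which the gene was annotated (RP for the Roswell Park libraries, CT for those of Caltech), and the part after it is a running number. Many genes that kept such names are long noncoding RNAs, antisense transcripts of coding genes or pseudogenes. Long noncoding RNAs as a class include regulators of chromatin and transcription, and Polycomb repressive complex 2 itself binds RNA. The word noncoding could not be checked here. Of the 298 names 0 occur in GENCODE release 29 and 0 in the reference name tables. No biotype, coordinate, strand, facing gene or sequence is therefore given for any of them, and rows are described by name, row length and counts.

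The libraries had 6362561 and 6162123 counts for siEZH2 replicates 1 and 2, against 6867542 and 6818482 for siCTRL replicates 1 and 2. Counts under EZH2 itself were 60 and 131 in the siEZH2 libraries and 39 and 59 in the siCTRL libraries, a log2 fold change of 0.51 (edgeR adjusted p = 0.621). Directions below are those of the libraries as labelled, because these counts may not measure the knockdown. The library kit marks strand, and the strand setting of the counting is not given in the sources used here. BEST1, whose exons lie opposite those of the ferritin gene FTH1, had a mean of 224335.25 counts, against 391.25 under FTH1. MT-ND6, the protein gene that lies alone on the light strand of mitochondrial DNA, had a mean of 40596.25 counts, against 2030 under MT-CO1 on the other strand. The strand setting itself was not tested. With the opposite setting, a row would hold reads from the facing strand, and this would apply to EZH2, to the markers and noncoding RNAs named below and to every clone-named row. Values are therefore counts under a row, not levels of the RNA it names.

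Luminal prostate markers (8 of 8 in the table, none at 0 throughout) summed to 3590 and 1910 CPM, counts scaled to library totals, in the siEZH2 libraries and to 3200 and 3160 CPM in the siCTRL libraries. Most of this sum was KRT8, a keratin of luminal epithelium, with 20476 and 10048 counts in siEZH2 libraries against 19289 and 18784 in siCTRL libraries. KLK3, which encodes prostate-specific antigen, had 270 and 374 counts against 594 and 588. KLK2 had 159 and 162 against 358 and 320, and TMPRSS2 had 158 and 155 against 226 and 231, so these 3 rows had lower raw counts in both siEZH2 libraries. Immune markers (3) summed to between 56.9 and 73.2 CPM in all libraries. Stromal markers (3) summed to 20.1 and 23.9 CPM in siEZH2 libraries against 4.08 and 16.1 CPM in siCTRL libraries, and endothelial markers (3) to 25.8 and 26.6 CPM against 5.24 and 16.6 CPM. The stromal sums rest on 28 to 147 counts per library and the endothelial sums on 36 to 164. By share of the library, 45.5% of all tested rows had both siEZH2 libraries above both siCTRL libraries, and 9.79% had both below. The part of these marker differences in the results was not tested.

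The 298 rows held a large part of all counts. Their share was 27.5% (exact 95% interval 27.5% to 27.57%) and 25.4% (25.33% to 25.4%) in siEZH2 replicates 1 and 2, against 27.9% (27.82% to 27.89%) and 27.3% (27.31% to 27.37%) in siCTRL replicates 1 and 2. These intervals cover counting error only. The mean share was 26.4% ± 1.54 in siEZH2 libraries and 27.6% ± 0.364 in siCTRL libraries (SD, n = 2 each), a difference of -1.15 percentage points. Replicate 2 of siEZH2 was the lowest of the 4 libraries, and replicate 1 of siEZH2 lay between the siCTRL libraries. The difference was -0.0615 percentage points without siEZH2 replicate 2 and -2.23 without siEZH2 replicate 1. No test was made, since the smallest two-sided p of an exact permutation test at this size is 0.333. The other 660 rows with a mean of at least 1000 held 42.7% and 40.4% of the siEZH2 libraries, against 45.7% and 43.2% of the siCTRL libraries. Clone-named rows below the threshold, 15765 in number, held 5.22% and 5.76% against 4.9% and 5.16%.

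**Figure D1:**
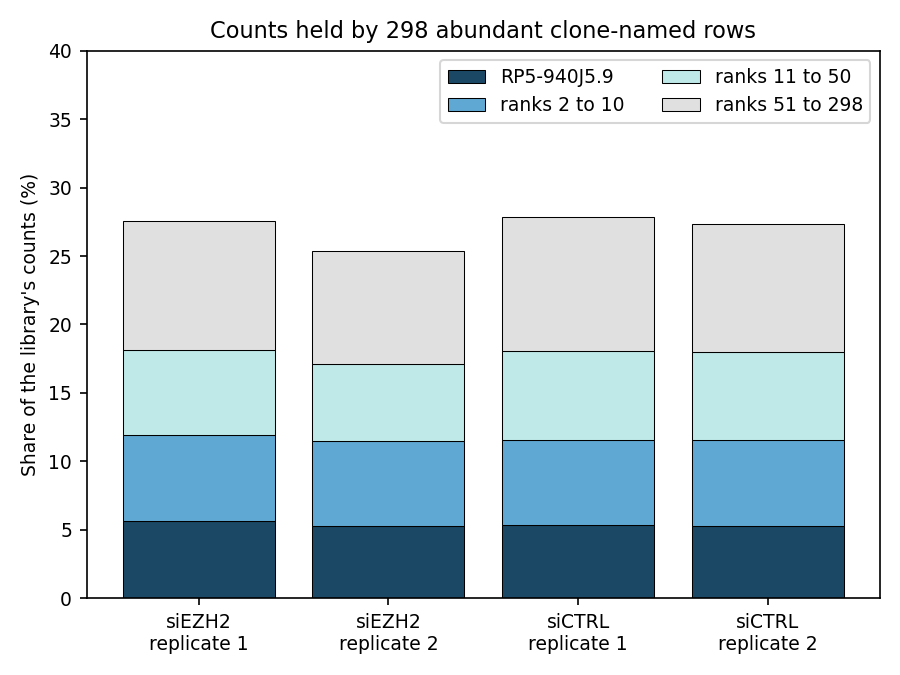
Stacked bars give the percentage of each library's counts under the 298 rows, split by rank of mean count, for the 2 siEZH2 libraries on the left and the 2 siCTRL libraries on the right. RP5-940J5.9 alone accounts for 5.26% to 5.65% of every library, and siEZH2 replicate 2 has the lowest total at 25.4%.

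Clone-named rows reached this abundance about as often as other rows did. Of 16064 clone-named rows 1.86% had a mean of at least 1000, against 1.52% of the 43321 other rows, although their median mean count was 3.75 against 7.5. They made up 27.1% of the table and 31.2% of its rows with a mean of at least 1000. By source library, 200 of the 298 rows were RP11 rows, 40 had another RP prefix, 39 were CTD, 10 CTB and 9 CTC rows. Rows from CTB clones were abundant in 3.65% of cases and rows from RP11 clones in 1.68%. The RP11 rows held 15.8% and 15.0% of the siEZH2 libraries, against 16.8% and 16.5% of the siCTRL libraries. Rows with another RP prefix held 7.85% and 7.13% against 7.35% and 7.25%, most of it under RP5-940J5.9. Next to the threshold, RP11-574F21.2 had a mean of 1001.25, RP11-650L12.2 of 1021.25 and RP3-508I15.19 of 1033.75 counts. Just below it were RP11-638I2.8 with 994.5, RP11-90B9.3 with 992 and RP4-548D19.3 with 990.5 counts.

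RP5-940J5.9 had the highest mean count of the 298 rows. Its row of 422 bases held 359567 and 323959 counts in the siEZH2 libraries, against 366831 and 361081 in the siCTRL libraries. That is 5.65% and 5.26% of the siEZH2 libraries and 5.34% and 5.30% of the siCTRL libraries, with means of 5.45% ± 0.279 and 5.32% ± 0.0325 (SD, n = 2 each). The siEZH2 values lay on both sides of the siCTRL values, so the groups overlapped. This row held 19.9% of the counts of the 298 rows, the first 10 rows held 42.9%, the first 20 held 52.0% and the first 100 held 79.5%.

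RP11-138I1.4 followed with 86759 and 111148 counts in siEZH2 libraries, against 111469 and 107872 in siCTRL libraries. RP11-290D2.6 had 68374 and 89933 against 82959 and 88245. As shares these were 1.36% and 1.80% in siEZH2 against 1.62% and 1.58% in siCTRL libraries for RP11-138I1.4, and 1.07% and 1.46% against 1.21% and 1.29% for RP11-290D2.6. In both rows siEZH2 replicate 1 had the lowest and siEZH2 replicate 2 the highest share, with the siCTRL libraries between them. CTC-425F1.4, 270 bases long, had 54265 and 36633 counts in siEZH2 libraries, against 51288 and 45572 in siCTRL libraries. RP11-498C9.2 had 46924 and 24064 against 41385 and 36842. In this pair of rows it was siEZH2 replicate 2 that was low, while replicate 1 was the highest library. CTD-2659N19.10 had 32077 and 33151 counts in siEZH2 libraries, against 28317 and 30764 in siCTRL libraries. Its share was 0.521% ± 0.0239 in siEZH2 and 0.432% ± 0.0275 in siCTRL libraries (SD, n = 2 each), and the siEZH2 shares both lay above the siCTRL shares.

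RP11-867G23.4 had 34330 and 23875 counts in siEZH2 libraries and 29599 and 32824 in siCTRL libraries, and its groups overlapped. RP11-498C9.3 had 26849 and 26626 against 26299 and 29989, which was the narrowest spread between siEZH2 libraries among the rows just named. RP11-161H23.5 differed most between groups among the first 20. It had 22912 and 18106 counts in siEZH2 libraries, against 33136 and 30787 in siCTRL libraries, or 0.327% ± 0.0469 and 0.467% ± 0.0219 of the library (SD, n = 2 each). Both siEZH2 shares lay below both siCTRL shares. RP11-1079K10.4 lay the other way by share only, and narrowly. It had 24364 and 21114 counts in siEZH2 libraries against 21678 and 23271 in siCTRL libraries, or 0.363% ± 0.0285 and 0.328% ± 0.0181 (SD, n = 2 each). Its raw count was lowest in siEZH2 replicate 2, whose share was only just above that of siCTRL replicate 2. Under the TMM scaling described below its log2 fold change was -0.42. RP11-983P16.4, one of the long rows at 7742 bases, had 17898 and 18741 counts against 23767 and 23233, with both siEZH2 shares below the siCTRL shares.

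The other 9 of the first 20 rows ran from 7626 to 21119 counts per library. RP11-498C9.13 had 21119 and 12142 counts in siEZH2 libraries against 19271 and 19233 in siCTRL libraries, and RP4-816N1.7 had 20090 and 11265 against 17307 and 16943. RP11-326A19.5 had 18279 and 9384 against 18626 and 16020, and RP11-110I1.6 had 18525 and 7626 against 17278 and 16031. In these 4 rows siEZH2 replicate 2 was the lowest library, and by share siEZH2 replicate 1 was the highest. The row ranked 15 by mean count, 9627 bases long, had the opposite pattern, with 10580 and 21057 counts in siEZH2 libraries against 14704 and 18738 in siCTRL libraries. RP11-770J1.5 had 16445 and 15668 against 15859 and 17746, and RP11-316M1.12 had 15775 and 13333 against 18182 and 15658. RP11-334J6.7 had 14260 and 12565 counts against 13869 and 12065, and RP1-76B20.16 had 12620 and 10946 against 13563 and 14341. By share of the library, 3 of the first 20 rows had both siEZH2 libraries above, 2 had both below, and 15 overlapped, beside 45.5% of all tested rows above and 9.79% below. After scaling by trimmed mean of M values (TMM) over all tested rows, 0 of the 20 were above and 14 below, beside 31.4% and 22.9%. With TMM factors from well-covered rows, 6 were above and 2 below, beside 49.9% and 6.76%.

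**Figure D2:**
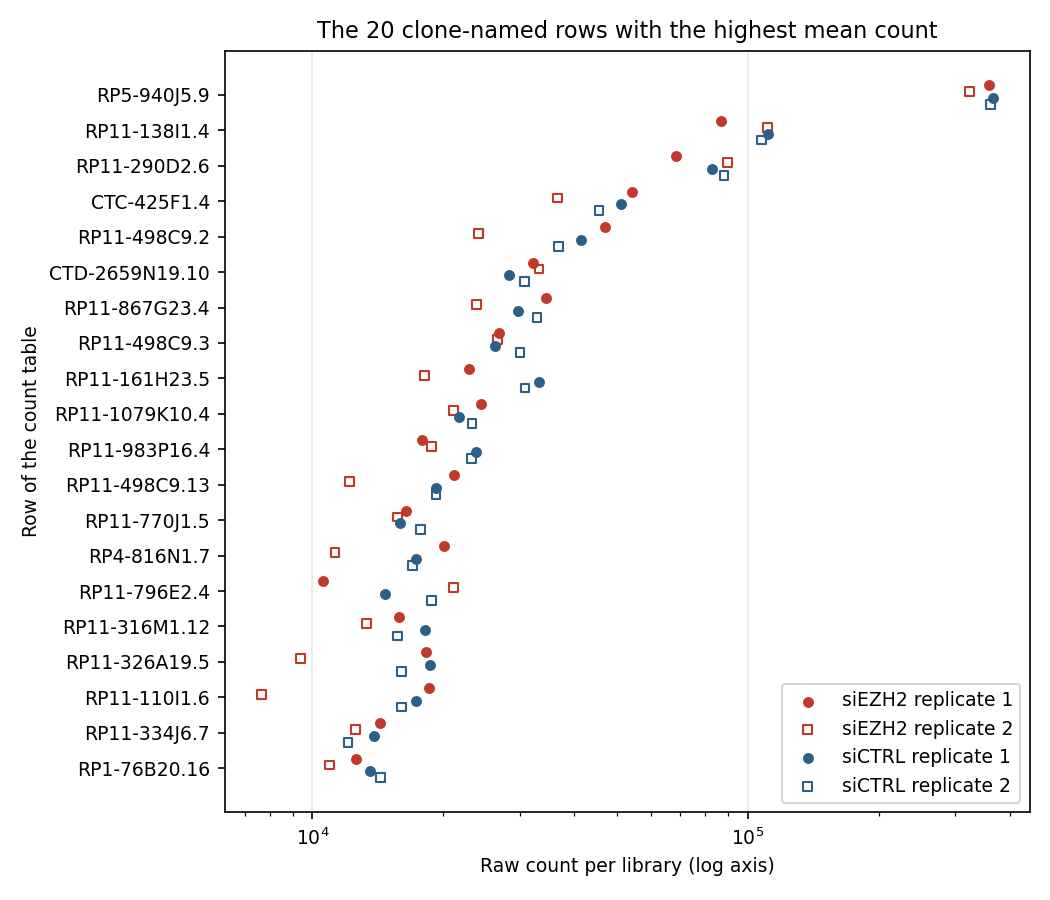
Points give the raw count of each of the 20 most abundant clone-named rows in each library on a log axis, with siEZH2 in red and siCTRL in blue, filled for replicate 1 and open for replicate 2. The siCTRL points of a row lie close together, while the siEZH2 points separate widely in rows such as RP11-110I1.6 (18525 and 7626 counts) and the row ranked 15 (10580 and 21057 counts).

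The abundant clone-named rows were short. Their median length was 946 bases, with quartiles at 523.2 and 2355 bases, and 155 of the 298 rows (52.0%) were under 1000 bases. The other 660 rows with a mean of at least 1000 had a median of 4534 bases, and 10.5% of them were under 1000 bases. Short rows are common among clone-named rows of any count, since 63.5% of those below the threshold were under 1000 bases. The shortest of the abundant ones had 156 bases, with 5526 and 3672 counts in siEZH2 libraries against 5453 and 5045 in siCTRL libraries. RP3-394A18.1 was the longest at 49287 bases, with 3673 and 3534 against 3806 and 3718 counts.

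Since both sets were chosen by count, density largely restates length. Counts per kb of row length had a median of 2430 over the 298 rows, against 550 over the other 660 rows. Density was highest in RP5-940J5.9, at 852000 and 768000 counts per kb in siEZH2 libraries against 869000 and 856000 in siCTRL libraries. RP11-138I1.4 had a mean of 226000 counts per kb, CTC-425F1.4 of 174000, RP11-290D2.6 of 140000 and CTD-2659N19.10 of 105000. The lowest density among the 298 rows was 74.7 counts per kb.

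**Figure D3:**
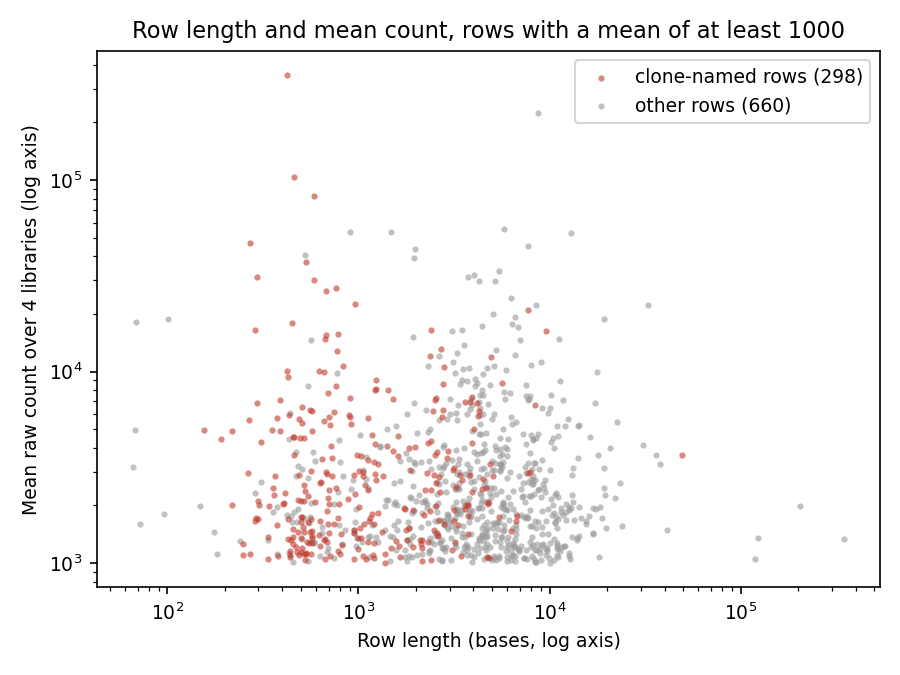
Each point is a row with a mean of at least 1000 counts, placed by row length and by mean raw count over the 4 libraries, both on log axes, with the 298 clone-named rows in red and 660 other rows in grey. The clone-named rows lie to the left, with a median length of 946 bases against 4534 bases, and RP5-940J5.9 is the highest point.

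Well-known noncoding RNAs are given here beside the clone-named rows, with no comparison of levels, since the clone-named rows were chosen for high counts and these were not. MALAT1, a nuclear RNA linked to splicing and metastasis, had 69 and 26 counts in siEZH2 libraries against 124 and 90 in siCTRL libraries. RN7SK, which restrains the elongation factor P-TEFb, was at 0 in every library. OIP5-AS1, a conserved long noncoding RNA, had 478 and 826 against 1279 and 1305. PCA3, a prostate cancer-specific RNA used as a urine marker, had 3612 and 2291 counts against 4199 and 4118. MALAT1, OIP5-AS1 and PCA3 had negative log2 fold changes under TMM. Positive ones included CYTOR, with 28 and 154 counts against 8 and 33, and NEAT1, with 125 and 105 against 30 and 59. Of 36 such RNAs in the list used here 27 were tested, 12 with a positive and 15 with a negative log2 fold change, and 0 were called (edgeR quasi-likelihood test, lowest Benjamini-Hochberg adjusted p 0.189). Their median log2 fold change was -0.26, against 0.22 over all 24431 tested rows. These directions are those under TMM. With library totals alone 14 of the 27 were positive, beside 75.4% of all tested rows. Of the tested ones 2 had a mean of at least 1000, and the mean counts of all 27 summed to 9291.2.

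Abundance was usually limited to 1 row of a clone. Only 1.86% of all clone-named rows had a mean of at least 1000, so this pattern says little about clones. CTC-425F1.4 and RP4-816N1.7 had no other row of their clone. RP5-940J5.9 held 99.5% of the mean counts of the rows named after clone RP5-940J5. The next row of that clone, RP5-940J5.6, had 1931 and 1476 counts in siEZH2 libraries against 2044 and 1652 in siCTRL libraries. RP11-138I1.4 held 99.9% of its clone, where RP11-138I1.3 had a mean of 77.25 counts. RP11-290D2.6 stood beside RP11-290D2.5 with a mean of 0.25 counts. The 298 rows came from 266 clones, of which 24 had at least 2 abundant rows, 56 rows in all.

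Clone RP11-498C9 was the main exception, with RP11-498C9.2, RP11-498C9.3 and RP11-498C9.13 at means of 37303.75, 27440.75 and 17941.25 counts. Rows of this clone did not vary in parallel. From siEZH2 replicate 1 to replicate 2 the share changed by -0.92 on the log2 scale in RP11-498C9.2 and by -0.75 in RP11-498C9.13, but by 0.03 in RP11-498C9.3. In clone RP11-67L3 the same ratio was -1.27 in RP11-67L3.7 and -1.35 in RP11-67L3.5. RP11-67L3.7 had 12843 and 5167 counts in siEZH2 libraries against 11565 and 12999 in siCTRL libraries, and RP11-67L3.5 had 7912 and 3006 against 6685 and 7374. Clone RP11-173P15 held rows that went opposite ways, at -0.70 in RP11-173P15.3 and 2.06 in RP11-173P15.5. CTD-3193O13 had most abundant rows, 5, with means from 1088.75 to 2031.5 counts. Over the 43 pairs of rows from 1 clone the median absolute difference in this ratio was 0.31, against 0.45 over all 44253 pairs. For the log2 fold change between groups, on library totals, it was 0.31 within clones and 0.30 over all pairs. Whether rows of 1 clone share reads was not tested.

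Between siEZH2 and siCTRL libraries 0 of the 298 rows were called higher or lower. All 298 passed the filter on low counts. The edgeR quasi-likelihood test, with Benjamini-Hochberg adjustment over all 24431 tested rows and a threshold of 0.05, called 0.0% of all tested rows in either direction. The lowest adjusted p among the 298 rows was 0.189. At an unadjusted p under 0.05, 71 of them were lower (23.8%) and 0 higher, beside 7.91% lower and 8.53% higher of all tested rows. DESeq2 called 67 of them lower and 0 higher, beside 3.51% lower and 0.0409% higher of all tested rows, and limma-voom called 16 lower and 0 higher, beside 1.37% lower and 0.045% higher. Other abundant rows had a similar share. Of the 660 other rows with a mean of at least 1000, 178 were lower at an unadjusted p under 0.05 (27.0%) and 0 higher.

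Which direction the rows took depended on how libraries were scaled. With TMM factors, the edgeR default, 293 of 298 rows had a negative log2 fold change and 5 a positive one. Their median was -0.68, against -0.72 for the 660 other abundant rows and 0.22 for all tested rows. The TMM factors were 1.12 and 1.34 for the siEZH2 libraries and 0.704 and 0.945 for the siCTRL libraries. With library totals alone 110 rows were positive and 188 negative, at a median of -0.10, while the other abundant rows had -0.15 and all tested rows 0.75. With TMM factors computed on well-covered rows (200 counts or more in 2 libraries), 160 were positive and 138 negative, at a median of 0.04, the other abundant rows had -0.01 and all tested rows 0.88. Under all 3 scalings the clone-named and the other abundant rows had close medians, both below that of all tested rows.

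Counts of rows whose groups did not overlap moved in the same way. With TMM, both siEZH2 libraries lay below both siCTRL libraries in 226 of 298 rows (75.8%), beside 22.9% of all tested rows, and above them in 0, beside 31.4%. With library totals alone 108 rows (36.2%) lay below, beside 9.79% of all tested rows, and 37 (12.4%) above, beside 45.5%. With factors from well-covered rows 58 lay below, beside 6.76% of all tested rows, and 74 above, beside 49.9%. Among the 660 other abundant rows the share below was 79.7%, 37.6% and 23.5% under these scalings in turn. Leaving out a library can only keep or raise such counts, so the counts without single libraries say nothing about their stability.

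**Figure D4:**
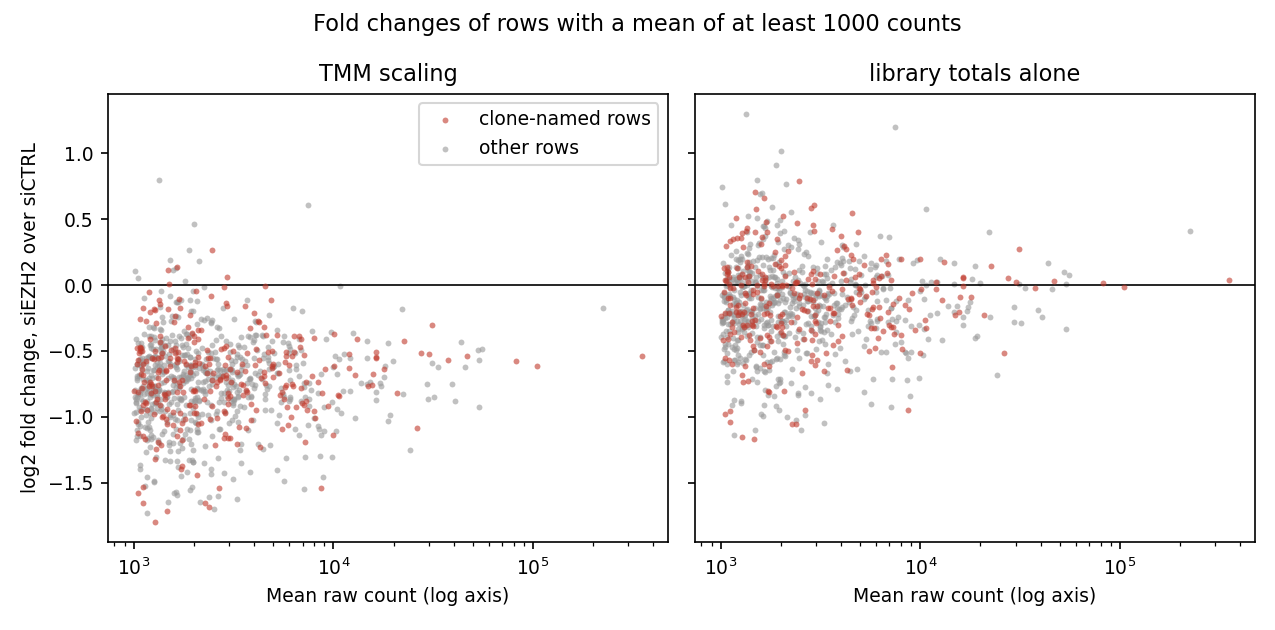
Log2 fold change of siEZH2 over siCTRL against mean raw count (log axis) for the 298 clone-named rows in red and 660 other rows with a mean of at least 1000 in grey, under TMM scaling on the left and library totals alone on the right. Under TMM 293 of the 298 rows lie below 0, under library totals 188, and in both panels the red points lie among the grey ones.

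The most negative fold changes were found well below the top of the list. RP11-173P15.5 had 295 and 1190 counts in siEZH2 libraries against 1737 and 1899 in siCTRL libraries. After TMM scaling the row stood at 94.7 ± 74.3 CPM in siEZH2 and 330 ± 45.0 CPM in siCTRL libraries (SD, n = 2 each). Its log2 fold change was -1.80 (standard error 0.50, edgeR adjusted p = 0.189). Without siEZH2 replicate 2, in which the row was higher, the fold change was -2.98 and edgeR called it. That fit has 1 siEZH2 library, assumed to vary as the siCTRL libraries do, and leaves out the library known to be high, so the call is no support. RP11-290L1.3 had 981 and 718 counts in siEZH2 libraries against 1936 and 2230 in siCTRL libraries, or 114 ± 36.3 and 376 ± 37.6 CPM (SD, n = 2 each). Its log2 fold change was -1.72 (standard error 0.42). The larger difference between libraries of a group was here 0.659 on the log2 scale after TMM scaling, against 1.8 in RP11-173P15.5.

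RP11-6N17.6 had 1172 and 1730 counts in siEZH2 libraries against 3681 and 2934 in siCTRL libraries, a log2 fold change of -1.69. RP11-629N8.5 had 1544 and 1235 against 3678 and 2616, a log2 fold change of -1.66. RP11-360L9.7 had 659 and 705 against 1765 and 1298, a log2 fold change of -1.65. All 5 rows had both siEZH2 libraries below both siCTRL libraries under TMM and on library totals. The shares below were 22.9% and 9.79% of all tested rows, and 75.8% and 36.2% of the 298 rows. Rows chosen for the lowest fold changes would largely separate this way in any case. On library totals the log2 fold changes of the 5 rows ran from -1.17 to -1.04. Each had an edgeR adjusted p of 0.189 under TMM. With no low-count filter, edgeR called RP11-173P15.5 (adjusted p = 0.0263) and RP11-290L1.3 (adjusted p = 0.0464). DESeq2 and limma-voom called all 5, with adjusted p from 0.00114 to 0.00664 in DESeq2 and from 0.000572 to 0.0136 in limma-voom. These tools called 67 and 16 of the 298 rows lower. The 5 rows were chosen as the most negative in these same data, so the calls on them are no support.

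At the other end, the 5 most positive values under TMM lay between 0.01 and 0.26, and each turned negative without 1 of the libraries. RP11-388M20.2 had 3964 and 2064 counts in siEZH2 libraries against 1786 and 1995 in siCTRL libraries, a log2 fold change of 0.26 (standard error 0.45, edgeR adjusted p = 0.782), which was -0.50 without siEZH2 replicate 1. CTD-3113P16.5 had 2434 and 1463 against 1151 and 1531, a log2 fold change of 0.14, which was -0.49 without siEZH2 replicate 1. A row of 1780 bases had 986 and 2567 against 962 and 1428, a log2 fold change of 0.11, which was -0.61 without siEZH2 replicate 2 and -0.05 without siCTRL replicate 1. RP11-66B24.4 had 4568 and 2299 against 2591 and 2298, a log2 fold change of 0.06, which was -0.74 without siEZH2 replicate 1 and -0.27 without siCTRL replicate 2. CTB-191K22.5 had 2094 and 1390 against 1346 and 1201, a log2 fold change of 0.01, which was -0.52 without siEZH2 replicate 1 and -0.32 without siCTRL replicate 2. In 4 of these 5 rows siEZH2 replicate 1 was the highest library, and in the row of 1780 bases it was siEZH2 replicate 2. These values depended on the scaling, and ran from 0.58 to 0.79 on library totals and from 0.71 to 0.93 with factors from well-covered rows. By share, RP11-388M20.2, CTD-3113P16.5 and CTB-191K22.5 had both siEZH2 libraries above both siCTRL libraries, and the other 2 rows overlapped. Of all tested rows 45.5% lay above in this way, and of the 298 rows 12.4% did.

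The siEZH2 libraries differed from each other in these rows more than the siCTRL libraries did. The log2 ratio of shares, replicate 2 over replicate 1, had an SD of 0.51 over the 298 rows between siEZH2 libraries and of 0.20 between siCTRL libraries. It ran from -2.18 to 2.06 in siEZH2 and from -0.84 to 0.65 in siCTRL libraries. A difference over 2-fold was found in 20 rows between siEZH2 libraries, 14 of them lower in replicate 2, and in 0 rows between siCTRL libraries. The siEZH2 difference was the wider one in 223 of 298 rows (74.8%). Other abundant rows had SDs of 0.43 and 0.25 between the libraries of siEZH2 and of siCTRL, and the siEZH2 difference was the wider one in 68.6% of them. Of these 660 rows, 18 differed over 2-fold between siEZH2 libraries and 11 between siCTRL libraries. These SDs are taken across rows of the same libraries and carry no test.

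CTB-96E2.7 showed the largest such difference, with 1520 and 325 counts in siEZH2 libraries against 1739 and 1582 in siCTRL libraries. Its log2 fold change was -1.25 (standard error 0.56, edgeR adjusted p = 0.285), and -3.00 without siEZH2 replicate 1, where edgeR called it. The row was named for this difference, and that fit has 1 siEZH2 library assumed to vary as the siCTRL libraries do, so the call is no support. In RP11-173P15.5 the difference went the other way, as its counts above show. RP11-23N2.4 had 1666 and 603 counts in siEZH2 libraries against 1161 and 843 in siCTRL libraries, a log2 fold change of -0.26. Leaving out siEZH2 replicate 2 gave 0.34, and leaving out siCTRL replicate 1 gave 0.18. CTB-96E2.7 was thus near the siCTRL level in siEZH2 replicate 1 and far below it in replicate 2. RP11-23N2.4 was above both siCTRL libraries in siEZH2 replicate 1 and below both in replicate 2. RP11-173P15.5 was below both siCTRL libraries in each siEZH2 library.

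Between siEZH2 libraries the ratio was described by row length, with no test. The median log2 ratio of siEZH2 replicate 2 over replicate 1 was -0.25 in the 63 rows of up to 500 bases, -0.16 in 93 rows of 500 to 1000 bases, -0.03 in 57 rows of 1000 to 2000 bases and -0.02 in 85 longer rows. Rows went both ways, from -1.26 to 0.59 in the shortest class (SD 0.44) and from -1.35 to 2.06 in the next (SD 0.57). Between siCTRL libraries the medians were -0.04, -0.09, -0.08 and -0.08 in the same order. Other abundant rows had -0.12, -0.02, -0.05 and -0.08 between siEZH2 libraries, where the shortest class (29 rows) was also the lowest. The 14 rows lower by over 2-fold in siEZH2 replicate 2 included 11 of up to 1000 bases and 0 over 2000 bases. Among the other abundant rows 12 were lower by over 2-fold. Of these, 9 were over 2000 bases, a class that held 531 of the 660 rows. Log2 fold changes between groups had TMM medians of -0.63, -0.76, -0.66 and -0.69 from the shortest to the longest class.

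**Figure D5:**
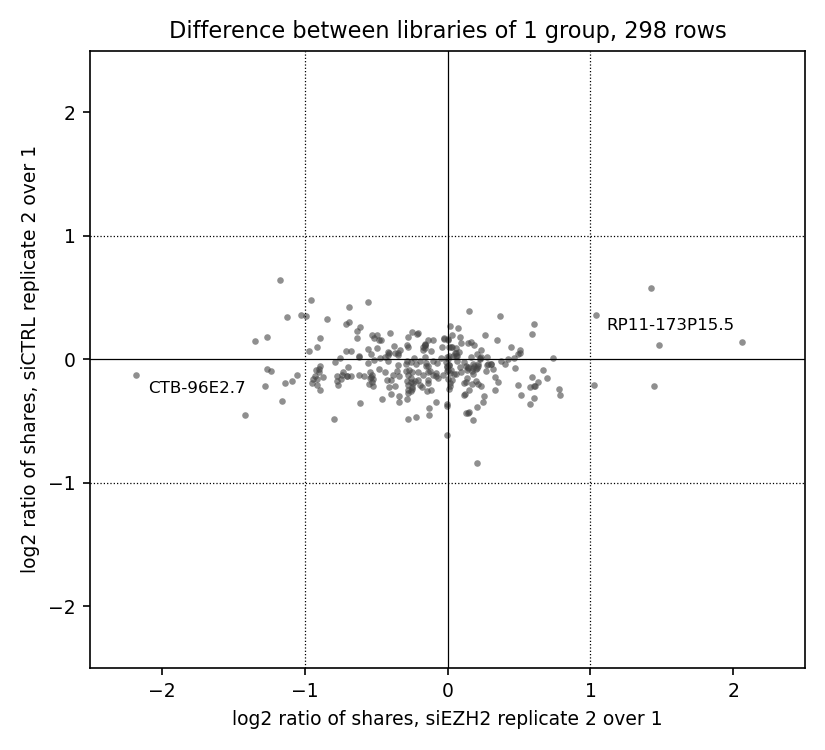
Each of the 298 rows is placed by the log2 ratio of its share of counts in siEZH2 replicate 2 over replicate 1 (horizontal) and in siCTRL replicate 2 over replicate 1 (vertical), with dotted lines at 2-fold. The points spread from -2.18 to 2.06 along the siEZH2 axis and from -0.84 to 0.65 along the siCTRL axis, and 20 rows pass a dotted line, all on the siEZH2 axis.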

How the data were processed

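Per the labels' protocols, total RNA from C4-2 cells entered a stranded total RNA kit. Software listed per the submitters' processing notes, with no role or order, was featureCounts 2.0.3, STAR 2.7.10b, limma and edgeR, with build GRCh38. The authors deposited 1 table of raw counts for 59385 rows with row lengths. Columns were matched to libraries by title. Neither annotation release nor strand setting is given in the sources used here.

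Rows kept by filterByExpr (24431, with 34954 left out) were scaled by TMM and tested with edgeR 4.0.16 (R 4.3.3, glmQLFit and glmQLFTest, siEZH2 against siCTRL, no covariate), adjusted by Benjamini-Hochberg over all tested rows at 0.05. Standard errors were derived from the F statistics. The biological coefficient of variation was 46.5%. The procedure was tested on simulated data with the same spread for all rows and for both groups. That simulation did not cover the wider siEZH2 spread or the unequal TMM factors of these libraries. Within-group ratios and shares used deposited library totals, and intervals are exact binomial ones.

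The rows and lists were chosen with earlier results of these data known. Named rows were the 20 most abundant, the 5 most positive and 5 most negative of the others, the 3 with the largest within-group difference, and 6 next to the threshold. Rows of 1 clone, the shortest and longest rows and the listed noncoding RNAs named singly were chosen after their values were seen. Deviations of same-numbered libraries had r = 0.0575 over all tested rows, -0.0438 over the 298 rows and -0.136 over the other abundant rows. No label says that numbers mark a shared culture, so no block was used. Alternatives used DESeq2 1.42.0, limma 3.58.1, other scalings and filters. Tables and plots used Python 3.11.15.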

Additional observations from a re-analysis of the deposited data

How the results depend on the processing

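The count of all rows called, 0 under TMM, was 13 with RLE factors, 80 with no low-count filter, 868 with DESeq2, 345 with limma-voom, and 1 to 234 with 1 library left out. Of the 298 rows, 0 were called under TMM, 2 with no low-count filter, 67 with DESeq2, 16 with limma-voom, and 0 to 1 with 1 library left out, with the single library of that group taken to have the spread of the other group. The replicate number as a block gave 1327 called rows, 119 of them among the 298 rows, and these 119 were lower in siEZH2. The numbers were not shown to pair the libraries. RLE, upper-quartile and well-covered-row factors, library totals alone, leaving the 298 rows out of the scaling and requiring 50 counts in 2 libraries called 0 of the 298.

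The median log2 fold change of -0.68 was -0.10 with library totals alone, 0.04 with factors from well-covered rows, -0.28 under the filter of 50 counts, and -0.97 to -0.48 with 1 library left out. Rows with both siEZH2 libraries below numbered 226 under TMM, 108 on library totals and 58 with factors from well-covered rows, and 226 to 291 with 1 library left out. Rows with both above numbered 0, 37 and 74, and 0 to 11 with 1 library left out; leaving out a library can only keep or raise such counts. The difference in share of -1.15 percentage points was -2.52 with RP11-386G11.10 included and -2.23 to -0.0615 with 1 library left out. Rows differing over 2-fold within a group numbered 41 (siEZH2) and 2 (siCTRL) under TMM. Non-overlap with a library left out and within-group counts under other scalings were chosen after seeing the data.

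Of the 12 rows named for their fold change or within-group difference, 6 changed sign somewhere, in 29 of 168 refits. With 1 library left out RP11-388M20.2 ran from -0.50 to 0.71 and CTD-3113P16.5 from -0.49 to 0.52. The row of 1780 bases had -0.01 with RLE and with DESeq2, -0.00021 with the block, -0.0012 with limma-voom, and -0.61 to 0.50 with 1 library left out. RP11-66B24.4 had -0.08 with RLE and DESeq2, -0.01 with no filter, -0.03 with the block and limma-voom, and -0.74 to 0.52 with 1 library left out. CTB-191K22.5 had -0.13 with RLE and DESeq2, -0.02 with upper-quartile factors, the block and limma-voom, -0.06 with no filter, -0.03 with the 298 rows out of the scaling, and -0.52 to 0.34 with 1 library left out. RP11-23N2.4 had 0.30 on library totals, 0.44 with well-covered-row factors, 0.14 under the filter of 50 counts, and -1.40 to 0.34 with 1 library left out. The cause of these changes was not tested. A p over 0.05 at 2 libraries a group does not show that a row did not differ.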
